A study of Mus musculus with 12 samples.

Results

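The 10 genes described here are markers of cholangiocytes, the epithelial cells that line the bile ducts, and of the epithelial junctions and keratin filaments of the liver. They are the E-cadherin gene Cdh1, the keratin genes Krt8, Krt18, Krt7, Krt19 and Krt23, the duct surface and fate genes Epcam and Sox9, the secreted phosphoprotein gene Spp1 and the chloride channel gene Cftr. They were chosen by name, with earlier results of these data known, and make up 10 of the 34986 genes in the deposited table. All 10 were found there, and all 10 were among the 19006 genes tested, which reached a normalized count of 1 in at least 6 of the 12 libraries.

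Liver RNA came from female C57BL/6 mice aged 16 weeks, in 6 libraries of mice given valproic acid and obeticholic acid together (VPA_OCA) and 6 of mice given valproic acid alone (VPA). Valproic acid, a drug against seizures with known liver toxicity, was thus shared by both groups, and mice without it were not analysed here. Obeticholic acid, a modified bile acid, is an agonist of the nuclear receptor FXR, and the question is how the transcripts of these genes differ when it is added. Dose and duration were not given in the labels used here.

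Values are the authors' normalized counts, which are read counts divided by a factor per library, and they summed to between 20236900 and 22087711 per library. Estimated depths were 37766890 reads in VPA_OCA replicate 1, 17879222 in VPA replicate 3 and 19683964 to 22021646 in the other 10 libraries. The libraries separated by replicate number, with numbers 4 to 6 on one side and 1 to 3 on the other side of the first principal component (40.4% of the variance) in both groups. The labels name no batch, so values in both sets of numbers are given where an effect differed between them at an unadjusted p under 0.05. VPA_OCA replicate 3 stood apart in several duct genes and VPA replicates 4 and 5 held skeletal muscle transcripts, with the 8 muscle markers summing to 13.0 to 32.2 normalized counts in VPA_OCA and 9.49 to 565 in VPA. Of the genes known to respond to FXR activation, the bile acid exporter subunit Slc51b averaged 174 ± 44.6 in VPA_OCA and 19.1 ± 8.78 in VPA, and the bile acid hydroxylase Cyp8b1 averaged 528 ± 252 in VPA_OCA and 2484 ± 689 in VPA (SD, n = 6 each). The log2 fold change of Cyp8b1 was -1.64 among numbers 4 to 6 and -3.02 among numbers 1 to 3 (unadjusted limma p of the difference 0.00593).

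Cholangiocytes form the walls of the bile ducts and modify bile by secreting chloride, bicarbonate and water. Keratins assemble as pairs of a type I and a type II protein. Krt8 (type II) and Krt18 (type I) are made by hepatocytes and cholangiocytes alike, whereas Krt7 (type II) and Krt19 (type I) mark duct cells in the normal adult liver. E-cadherin joins neighbouring epithelial cells at adherens junctions, through catenins that link it to actin, and in mouse liver it is found on cholangiocytes and on the hepatocytes around the portal tract. The transcripts of these cells are a small part of whole-liver RNA, and in such bulk samples fewer cells of a type and less RNA per cell cannot be told apart.

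The promoters of Krt8 and Krt18 are shown because these partner genes lie near each other on chromosome 15, with 23874 bases between them, and had similar fold changes, and that of Krt23, on chromosome 11, because it had the largest fold change of the 10 genes. Each is the RefSeq window of 250 bases before to 50 bases after the gene's start (GRCm38.p6), written 5′ to 3′ on the gene's strand. RefSeq windows were found for 7 of the 10 genes. Capitals mark 3 motifs, each searched on both strands. AGGTCA is the core hexamer that many nuclear receptors bind. CACCTG is an E-box that repressors of epithelial genes such as SNAIL and ZEB proteins bind, and TATAAA is the TATA box.
Krt8 promoter, chr15:102004293-102004592, minus strand: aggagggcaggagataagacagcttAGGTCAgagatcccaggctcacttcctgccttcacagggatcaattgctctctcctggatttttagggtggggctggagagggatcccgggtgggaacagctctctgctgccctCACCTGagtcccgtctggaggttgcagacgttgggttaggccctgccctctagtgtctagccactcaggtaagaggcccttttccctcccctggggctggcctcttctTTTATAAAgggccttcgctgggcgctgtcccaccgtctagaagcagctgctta
Krt18 promoter, chr15:102027966-102028265, plus strand: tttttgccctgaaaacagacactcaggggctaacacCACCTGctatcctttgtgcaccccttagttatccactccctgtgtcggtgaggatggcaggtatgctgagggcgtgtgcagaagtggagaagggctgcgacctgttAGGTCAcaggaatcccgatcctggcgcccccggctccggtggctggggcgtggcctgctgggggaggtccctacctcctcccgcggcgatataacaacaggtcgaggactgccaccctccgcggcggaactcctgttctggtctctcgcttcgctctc
Krt23 promoter, chr11:99493071-99493370, minus strand: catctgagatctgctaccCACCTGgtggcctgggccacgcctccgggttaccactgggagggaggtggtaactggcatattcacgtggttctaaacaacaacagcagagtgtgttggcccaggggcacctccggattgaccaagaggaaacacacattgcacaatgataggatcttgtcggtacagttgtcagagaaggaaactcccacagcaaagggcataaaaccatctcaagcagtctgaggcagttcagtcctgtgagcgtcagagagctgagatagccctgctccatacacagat

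AGGTCA occurred in the windows of Krt8 (position 26) and Krt18 (position 143), and in 16.3% of the 32851 promoters of this length. CACCTG occurred in those of Krt8 (position 140), Krt18 (position 37) and Krt23 (position 19), and in 20.2% of all promoters. TATAAA occurred in that of Krt8, and in 13.6% of all promoters. It lay at position 250 on the gene's strand (-1 from the annotated start) and at position 248 on the other strand (-3), where it overlaps the first match. These matches describe the letters of the windows and are not evidence of binding.

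Per length, the 10 genes fell into levels that spanned several orders of magnitude and had the same order in both groups. In FPKM, Krt8 averaged 104 ± 16.7 in VPA_OCA and 77.3 ± 12.5 in VPA, and Krt18 averaged 93.4 ± 30.7 in VPA_OCA and 71.6 ± 22.1 in VPA (SD, n = 6 each, here and below). Spp1 followed with 21.7 ± 5.18 FPKM in VPA_OCA and 20.9 ± 5.62 FPKM in VPA. Cdh1, at 9.75 ± 4.14 FPKM in VPA_OCA and 4.06 ± 0.577 FPKM in VPA, lay within the spread of Krt23, at 9.36 ± 5.85 FPKM in VPA_OCA and 3.84 ± 1.57 FPKM in VPA. The duct-restricted keratin Krt19 had 1.63 ± 1.61 FPKM in VPA_OCA and 0.885 ± 0.229 FPKM in VPA. Krt7 followed with 0.641 ± 0.325 FPKM in VPA_OCA and 0.569 ± 0.236 FPKM in VPA. Epcam had 0.457 ± 0.181 FPKM in VPA_OCA and 0.458 ± 0.0983 FPKM in VPA, and Sox9 had 0.352 ± 0.156 FPKM in VPA_OCA and 0.427 ± 0.239 FPKM in VPA. Krt7, Epcam and Sox9 did not differ from one another beyond their spread. Cftr was lowest, at 0.011 ± 0.00694 FPKM in VPA_OCA and 0.0227 ± 0.0199 FPKM in VPA. The keratins shared with hepatocytes were therefore measured at high levels and the duct-restricted genes at low ones.

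Cdh1 was higher in VPA_OCA, and it was the 1 of the 10 genes that passed the test in either direction, with 9 that did not. Over all 19006 genes, 84 were higher (0.442%) and 53 lower (0.279%) in VPA_OCA, 137 in all (0.721%), by limma on log2(normalized count + 1) with Benjamini-Hochberg adjustment over all genes tested and a threshold of 0.05. With the replicate number as a block, by which same-numbered libraries are paired, 129 genes were higher and 81 lower (0.679% and 0.426%). Cdh1 was again the 1 gene of the 10 called. The labels do not give this pairing, which was taken from the data. The median log2 fold change (VPA_OCA over VPA) of the 10 genes was 0.23, with 7 above 0, against a median of -0.001 over all genes, of which 49.9% were above 0. Without adjustment, Cdh1, Krt23 and Krt8 had a p under 0.05, 3 of the 10, as had 1815 of all genes (9.55%). Cdh1 was also the 1 gene of the 10 whose groups did not overlap, which held with VPA_OCA higher for 0.916% of all genes.

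**Figure D1:**
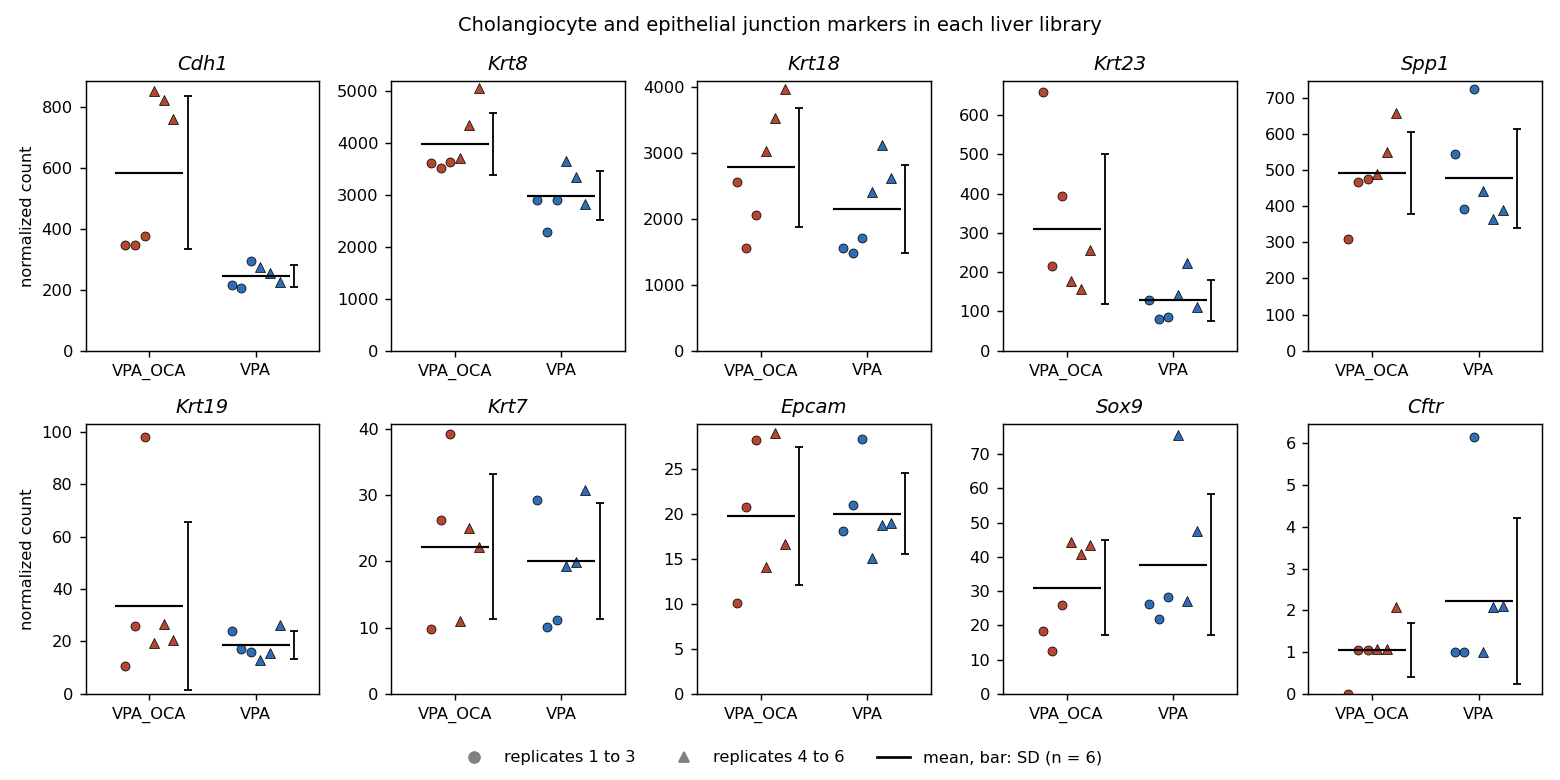
Normalized count (vertical axis, from 0) of each of the 10 genes in the 6 VPA_OCA and 6 VPA livers, with circles for replicates 1 to 3, triangles for replicates 4 to 6, a line for the mean and a bar for the SD. All VPA_OCA values of Cdh1 (346 to 851) lie above all VPA values (204 to 293), while the groups overlap for the other 9 genes.

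Cdh1 (ENSMUSG00000000303, chromosome 8, 106603351 to 106670246, plus strand, GRCm38), which encodes E-cadherin, had a lowest value of 346, a median of 567 and a highest value of 851 normalized counts in VPA_OCA, against a lowest value of 204, a median of 240 and a highest value of 293 in VPA. Its group means were 583 ± 251 in VPA_OCA and 244 ± 35.4 in VPA. The log2 fold change was 1.14 ± 0.24 (SE, 95% confidence interval 0.64 to 1.65), or 2.21-fold, with a limma adjusted p of 0.0368. The VPA_OCA livers formed 2 separate levels that followed the replicate number. Numbers 4, 5 and 6 had 851, 821 and 758 normalized counts in VPA_OCA, against 275, 254 and 226 in VPA. Numbers 1, 2 and 3 had 347, 346 and 375 in VPA_OCA, against 215, 204 and 293 in VPA.

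The log2 fold change of Cdh1 was 1.69 ± 0.10 among numbers 4 to 6 (limma adjusted p = 0.00022, in a fit where 0.347% of all genes were higher) and 0.60 ± 0.16 among numbers 1 to 3 (adjusted p = 0.15). Tested directly, the difference of effect between the sets was 1.09 ± 0.19 on the log2 scale (numbers 4 to 6 minus 1 to 3). Its unadjusted limma p of 4.6e-05 was the fifth smallest of all genes, and its adjusted p of 0.127 did not pass. That interaction passed for 2 of 19006 genes (0.0105%), neither of them among the 10, while 3 of the 10 (Cdh1, Krt23 and Spp1) and 1588 of all genes had an unadjusted p under 0.05. With the set of numbers as a term in the fit, the adjusted p of Cdh1 was 0.00126. With 1 library left out at a time, its log2 fold change stayed between 1.01 and 1.27 and its adjusted p between 0.0174 and 0.103, and it passed in 3 of the 12 fits, those without VPA_OCA replicate 1, 2 or 3. The fits without any 1 of the VPA libraries, or without VPA_OCA replicate 4, 5 or 6, did not pass.

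Krt8 (ENSMUSG00000049382, chromosome 15, 101996711 to 102004342, minus strand), the type II keratin of hepatocytes, ranged from 3524 with a median of 3672 to 5058 normalized counts in VPA_OCA, against 2291 with a median of 2905 to 3658 in VPA. The groups overlapped over all libraries but not within a set of numbers. Among numbers 4 to 6, the VPA_OCA values were 3716, 4350.0 and 5058 and the VPA values 3658, 3350.0 and 2831. Among numbers 1 to 3, they were 3622, 3524 and 3629 in VPA_OCA and 2901, 2291 and 2909 in VPA. Its log2 fold change was 0.42 ± 0.12 (95% confidence interval 0.16 to 0.67), or 1.33-fold, and did not pass (limma adjusted p = 0.179). The difference was 0.41 among numbers 4 to 6 and 0.42 among numbers 1 to 3, and with the set of numbers as a term, a fit in which 1.34% of all genes were higher, Krt8 passed beside Cdh1 (adjusted p = 0.0251).

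Krt18 (ENSMUSG00000023043, chromosome 15, 102028216 to 102032026, plus strand), the type I partner of Krt8, ranged from 1555 with a median of 2787 to 3962 normalized counts in VPA_OCA, against 1476 with a median of 2058 to 3117 in VPA. The groups overlapped over all libraries, but each VPA_OCA library was above the VPA library of the same number. The values of numbers 1 to 6 were 2550.0, 1555, 2057, 3024, 3522 and 3962 in VPA_OCA, against 1556, 1476, 1709, 2406, 3117 and 2618 in VPA. Krt18, Krt8 and Cdh1 were higher in VPA_OCA in 6 of 6 such pairs, as were 4.52% of all genes. The log2 fold change of Krt18 was 0.36 ± 0.23 without the pairs (95% confidence interval -0.13 to 0.85), or 1.28-fold, and did not pass (limma adjusted p = 0.703). With the replicate number as a block its SE was 0.09 and its unadjusted p 0.00263, but the adjusted p of 0.114 did not pass, nor did that with the set of numbers as a term (0.12). The set of numbers was the larger difference: Krt18 was higher among numbers 4 to 6 than among 1 to 3, by 0.78 ± 0.11 on the log2 scale with group as a term (adjusted p = 0.0003). The FPKM ratio of Krt18 to Krt8 ranged from 0.569 to 1.05 in VPA_OCA and from 0.692 to 1.2 in VPA, so the groups overlapped in the balance of this pair.

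**Figure D2:**
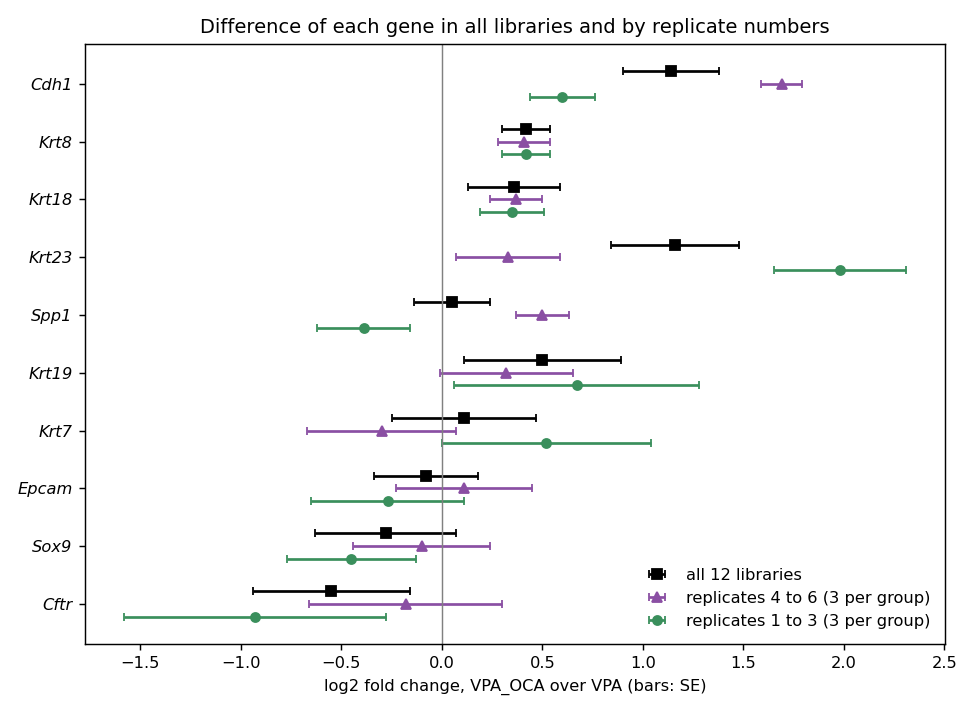
Log2 fold change of VPA_OCA over VPA (horizontal axis) with its SE for each gene, in all 12 libraries (squares), in replicates 4 to 6 (triangles) and in replicates 1 to 3 (circles). Cdh1 lies further to the right in replicates 4 to 6 (1.69) than in 1 to 3 (0.60), Krt23 the other way round (0.33 and 1.98), and Krt8 and Krt18 at nearly the same place in both.

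Krt23 (ENSMUSG00000006777, chromosome 11, 99477974 to 99493137, minus strand), a type I keratin that is low in normal liver, had the largest fold change of the 10 genes and did not pass the test. It ranged from 157 with a median of 236 to 658 normalized counts in VPA_OCA, against 81.0 with a median of 120.1 to 225 in VPA. The groups overlapped, and VPA_OCA replicate 1 was highest. Its log2 fold change was 1.16 ± 0.32 (95% confidence interval 0.47 to 1.84), or 2.23-fold, with a limma adjusted p of 0.149. Among numbers 4 to 6, the VPA_OCA values 177, 157 and 256 overlapped the VPA values 141, 225 and 112, with a log2 fold change of 0.33 ± 0.26 (adjusted p = 0.699). Among numbers 1 to 3, the VPA_OCA values 658, 215 and 394 lay above the VPA values 128, 81.0 and 86.1, with a log2 fold change of 1.98 ± 0.33 and an adjusted p of 0.0253, in a fit where 0.384% of all genes were higher.

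The order of the sets was thus the reverse of that for Cdh1. Tested directly, the difference of effect was -1.64 ± 0.49 on the log2 scale (numbers 4 to 6 minus 1 to 3), with an unadjusted limma p of 0.00423 and an adjusted p of 0.427, which did not pass. Without VPA_OCA replicate 1 the log2 fold change of Krt23 over all libraries was 0.90 (adjusted p = 0.233).

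The duct-restricted keratins did not pass the test. Krt19 (ENSMUSG00000020911, chromosome 11, 100140810 to 100148665, minus strand), the type I keratin most used to mark bile ducts, ranged from 10.6 with a median of 23.4 to 98.0 normalized counts in VPA_OCA, against 13.1 with a median of 16.5 to 26.4 in VPA. The value of 98.0 belonged to VPA_OCA replicate 3, and the next highest in that group was 26.8. The log2 fold change was 0.50 ± 0.39 (limma adjusted p = 0.778) with that library and 0.12 (adjusted p = 0.953) without it.

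Krt7 (ENSMUSG00000023039, chromosome 15, 101411043 to 101430313, plus strand), the type II keratin of duct cells, ranged from 9.85 with a median of 23.6 to 39.3 normalized counts in VPA_OCA, against 10.04 with a median of 19.6 to 30.8 in VPA. The groups overlapped almost wholly. Its log2 fold change was 0.11 ± 0.36 (95% confidence interval -0.66 to 0.87, limma adjusted p = 0.97), and it was -0.08 without VPA_OCA replicate 3, which again had the highest value.

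Epcam (ENSMUSG00000045394, chromosome 17, 87635979 to 87651106, plus strand), an epithelial adhesion molecule on duct and progenitor cells, ranged from 10.1 with a median of 18.7 to 29.0 normalized counts in VPA_OCA, against 15.1 with a median of 18.8 to 28.3 in VPA. Its means were nearly equal, at 19.8 ± 7.66 in VPA_OCA and 20 ± 4.48 in VPA, and the log2 fold change of -0.08 ± 0.26 had a 95% confidence interval of -0.63 to 0.48 (limma adjusted p = 0.969).

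Sox9 (ENSMUSG00000000567, chromosome 11, 112782224 to 112787760, plus strand), a transcription factor of duct fate, ranged from 12.5 with a median of 33.4 to 44.4 normalized counts in VPA_OCA, against 22 with a median of 27.7 to 75.6 in VPA. The log2 fold change of -0.28 ± 0.35 (limma adjusted p = 0.882) did not pass. Its values followed the set of numbers instead, at 44.4, 40.8 and 43.6 in VPA_OCA and 75.6, 27.0 and 47.4 in VPA among numbers 4 to 6. Among numbers 1 to 3 they were 18.5, 12.5 and 26.1 in VPA_OCA and 26.1, 22 and 28.3 in VPA. Sox9 was higher among numbers 4 to 6 by 1.01 ± 0.24 on the log2 scale (adjusted p = 0.00576). Together with Cdh1 (0.64 ± 0.17, adjusted p = 0.0107), Krt8 (0.28 ± 0.09, adjusted p = 0.0368) and Krt18, 4 of the 10 genes were higher among numbers 4 to 6 than among 1 to 3, as were 2441 of all 19006 genes (12.8%).

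Spp1 (ENSMUSG00000029304, chromosome 5, 104435118 to 104441050, plus strand) encodes osteopontin, a secreted phosphoprotein made by cholangiocytes, macrophages and other cells. It ranged from 309 with a median of 482 to 658 normalized counts in VPA_OCA, against 365 with a median of 417 to 726 in VPA, and the log2 fold change over all libraries was 0.05 ± 0.19 (limma adjusted p = 0.972). That value joined opposite directions, with 0.50 ± 0.13 among numbers 4 to 6 (adjusted p = 0.172) and -0.39 ± 0.23 among numbers 1 to 3 (adjusted p = 0.513). Among numbers 4 to 6, the VPA_OCA values 489, 551 and 658 lay above the VPA values 442, 365 and 390.0. Among numbers 1 to 3, the VPA_OCA values 309, 466 and 476 overlapped the VPA values 546, 392 and 726. The difference of effect between the sets, 0.89 ± 0.29 with an unadjusted p of 0.00816, had an adjusted p of 0.438. The 12 macrophage markers, of a cell type that also makes osteopontin, summed to 4147 to 5821 in VPA_OCA and 5463 to 8299 in VPA among numbers 4 to 6. Among numbers 1 to 3 they summed to 3522 to 5539 in VPA_OCA and 3056 to 4220 in VPA. Their part in the Spp1 values was not tested.

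Cftr (ENSMUSG00000041301, chromosome 6, 18170687 to 18322768, plus strand), the chloride channel of the duct cell's apical membrane, was at the edge of detection. It ranged from 0 with a median of 1.06 to 2.07 normalized counts in VPA_OCA, against 1 with a median of 1.54 to 6.15 in VPA, so most libraries held about 1 read. VPA_OCA replicate 1 had 0, which at its depth allows up to 1.68 normalized counts (3 reads, counting error only). No difference was detectable at this depth, with a log2 fold change of -0.55 ± 0.39 (95% confidence interval -1.38 to 0.27, limma adjusted p = 0.734). An antisense model, Gm15592, overlaps Cftr and was at 0 in all libraries, and Gm42793, which overlaps Spp1, averaged 0.352 in VPA_OCA and 0.378 in VPA. No annotated gene overlaps the other 8.

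The authors' deposited table gives its own comparison of VPA_OCA with VPA, in which 4 of these genes had an adjusted p under 0.05. In the authors' deposited table the log2 ratio was 1.12 for Cdh1 (adjusted p = 3.7e-06), 1.148 for Krt23 (0.00575), 0.41 for Krt8 (0.0106) and 0.37 for Krt18 (0.0399), and 418 of the 12517 genes called present were higher (3.34%). The ratios there lie close to the log2 fold changes above, and the calls differ for Krt23, Krt8 and Krt18. Krt19, Sox9, Krt7 and Spp1 had adjusted p-values of 0.266 to 0.923 in the authors' deposited table, and Epcam and Cftr were not called present.

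Pairs of the 10 genes were also compared from liver to liver, once group and set means were removed from the log2 values. Krt19 and Krt7, the keratin pair of duct cells, had the smallest p of the 45 pairs, with r = 0.80 (permutation p = 0.00309) and rho = 0.79 (permutation p = 0.00386) over the 12 libraries. The r was 0.71 without the 2 libraries farthest from the median of Krt19, VPA_OCA replicates 1 and 3. After Benjamini-Hochberg adjustment over the 45 pairs its p was 0.139, and 0 pairs passed, with 4 of the 45 at an unadjusted p under 0.05. Within the sets, r was taken on log2 values from which group means were not removed. It was 0.46 among numbers 4 to 6 (exact permutation p = 0.367, n = 6). Among numbers 1 to 3 it was 0.85 (exact permutation p = 0.00833, n = 6). Both values still hold any difference between the groups. Krt8 and Krt18, the hepatocyte pair, had a centred r of 0.38 (adjusted p = 0.76). Krt19 and Epcam had a centred r of 0.72 that became 0.21 without VPA_OCA replicates 1 and 3, so that relation rests on those libraries. On values with group and set means left in, 2 of the 45 pairs passed, both at a permutation adjusted p of 0.0256. They were Cdh1 with Krt8 (r = 0.82) and Krt19 with Krt7 (r = 0.73). Those values hold the differences between groups and sets, and the centred r of Cdh1 with Krt8 was 0.37 (permutation adjusted p = 0.919).

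**Figure D3:**
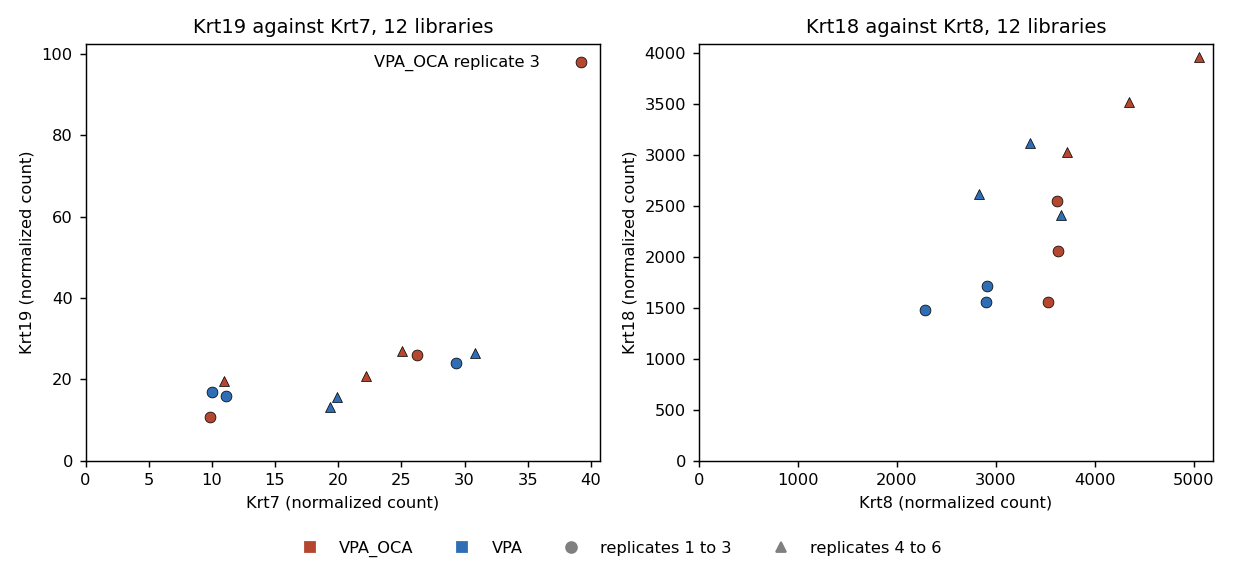
Normalized counts of Krt19 against Krt7 (left) and of Krt18 against Krt8 (right) in each of the 12 livers, in red for VPA_OCA and blue for VPA, with circles for replicates 1 to 3 and triangles for 4 to 6. VPA_OCA replicate 3 is highest for both duct keratins (98.0 for Krt19 and 39.3 for Krt7), and in the right panel replicates 4 to 6 lie above 1 to 3 for Krt18.

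The 27 other biliary genes, used as cholangiocyte markers or duct fate regulators, had 2 higher and 0 lower of 26 tested, against 0.442% and 0.279% of all genes, and a median log2 fold change of 0.10, which was 0.28 among numbers 4 to 6 and -0.02 among numbers 1 to 3. At an unadjusted p under 0.05 there were 5 of the 26. Of the 26, 16 had a log2 fold change above 0 and 10 under 0, with a range of -0.88 to 1.54. The list was chosen with earlier results of these data known, so these counts are descriptions. Slc10a2 (chromosome 8, 5083219 to 5105351), the sodium-dependent bile acid transporter of the ileum and of cholangiocytes, ranged from 123 with a median of 215 to 303 normalized counts in VPA_OCA, against 40.6 with a median of 69.5 to 119 in VPA. The groups did not overlap, and it rose by 1.54 ± 0.27 on the log2 scale (limma adjusted p = 0.0102). Prom1 (chromosome 5, 43993620 to 44102032), a membrane protein of duct and progenitor cells, ranged from 57.2 with a median of 137 to 183 in VPA_OCA, against 28.1 with a median of 40.1 to 66.4 in VPA. It rose by 1.51 ± 0.27 (adjusted p = 0.0116). Both passed in all 12 fits that left out 1 library, with adjusted p-values of up to 0.0306 for Slc10a2 and 0.0352 for Prom1.

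Onecut1, a transcription factor of liver and duct development, averaged 560.0 ± 191 in VPA_OCA and 313 ± 81.2 in VPA without passing (log2 fold change 0.80, adjusted p = 0.143). Fgfr2, a fibroblast growth factor receptor named here after its values were seen, averaged 1057 ± 349 in VPA_OCA and 584 ± 146 in VPA (log2 fold change 0.82, adjusted p = 0.153), and passed with the replicate block (adjusted p = 0.00686). With the set of numbers as a term, Slc10a2, Prom1, Onecut1 and Fgfr2 passed, 4 of the 26. In that fit 1.34% of all genes were higher. The duct markers Wfdc2 and Pkhd1 of this list, also named after their values were seen, had means within their spread. Wfdc2 averaged 136 ± 24.0 in VPA_OCA and 144 ± 21.1 in VPA. Pkhd1 averaged 107 ± 13.6 in VPA_OCA and 101 ± 14.5 in VPA.

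**Figure D4:**
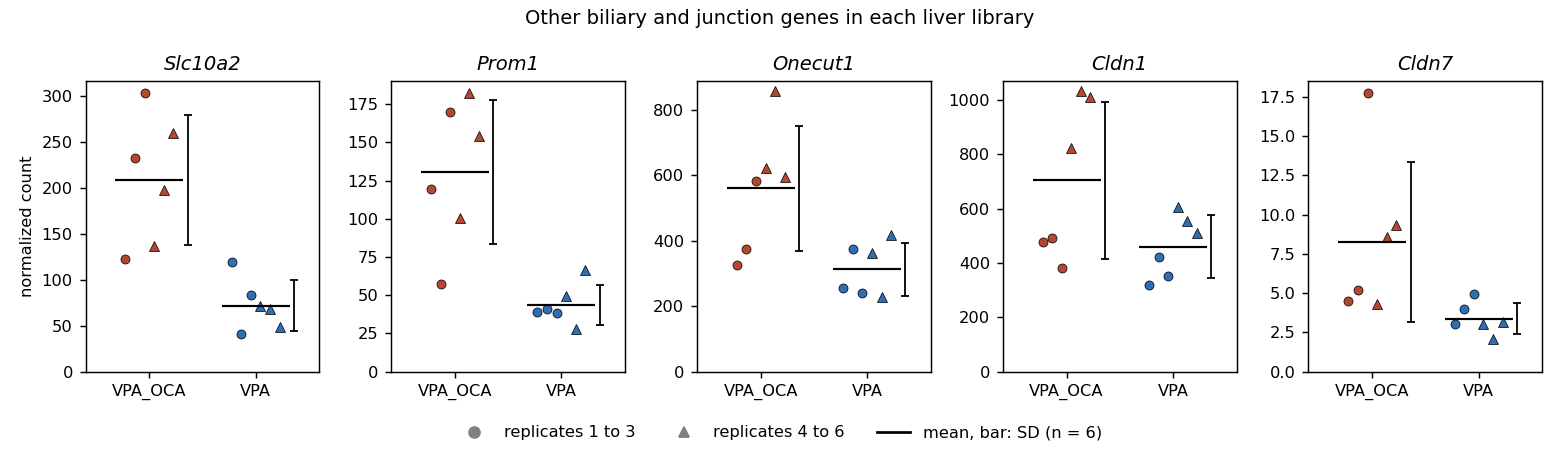
Normalized count (vertical axis, from 0) of the biliary genes Slc10a2, Prom1 and Onecut1 and of the tight junction genes Cldn1 and Cldn7 in the 6 VPA_OCA and 6 VPA livers, with circles for replicates 1 to 3, triangles for 4 to 6, a line for the mean and a bar for the SD. All VPA_OCA values of Slc10a2 (123 to 303) lie above all VPA values (40.6 to 119), and the highest point of Cldn7 is VPA_OCA replicate 3 (17.7).

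The highest value of all 12 libraries was in VPA_OCA replicate 5 for 5 of the 26 other biliary genes. Of the 21 tight junction genes, 6 were highest in VPA_OCA replicate 5 and 1 in VPA_OCA replicate 3. Of the 10 genes, 2 were highest in VPA replicate 3. The share of all genes highest in VPA_OCA replicate 5 or VPA replicate 3 was not computed, so these counts are descriptions only. Of all genes, 6.41% were highest in VPA_OCA replicate 3. It was highest for 7 of the 26 other biliary genes, Cd24a, Ehf, Mmp7, Muc1, Slc10a2, St14 and Tspan8, and for Krt19 and Krt7. These genes were picked out after their values were seen. Muc1, an apical mucin, had 102 normalized counts in that library and 3.92 to 9.34 in the other VPA_OCA livers, against 3.02 to 8.61 in VPA. Cd24a, a surface glycoprotein of duct and progenitor cells, had 138 there and 31.4 to 52.6 in the other VPA_OCA livers, against 32.2 to 52.9 in VPA. Krt7, Krt19, Muc1 and Cd24a were thus all highest in the same liver, while Sox9 (26.1) and Spp1 (476) did not stand out in it. Epcam, at 28.2 in VPA_OCA replicate 3, was near its highest values of 29.0 in VPA_OCA and 28.3 in VPA. Markers of pancreas, stomach and gut were also present there. Ctrb1, which encodes the pancreatic enzyme precursor chymotrypsinogen and was below the filter, had 40.7 normalized counts in VPA_OCA replicate 3 and 0 to 1.08 in the other VPA_OCA livers, against 0 to 10.4 in VPA. Reg1, a pancreatic secreted protein gene also below the filter, had 25.0 there and 0 in the other VPA_OCA livers, against 0 to 2.08 in VPA, while Prss2, Cpa1 and Pnlip were at 0 in this library; these 5 genes were named after their values were seen. Of the 8 tested markers of this list, Cpb1, Tff2 and Tff3 were highest there, at 8.46, 9.39 and 4.17 normalized counts. Cpb1 reached 7.46 in VPA, close to that value. The pancreas marker Cela2a was not highest in VPA_OCA replicate 3, at 19.8. It ranged from 15.6 to 28.1 in VPA_OCA and from 5.27 to 21.1 in VPA. The gastric and intestinal markers Muc5ac, Gkn2, Tff1 and Cdx2 were at 0 in all libraries. Their part in the values of this library was not tested.

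Over all 12 libraries with group as the only term, the listed genes of epithelial junctions did not pass in either direction by limma. These lists do not hold Cdh1. Cldn1 and Dsp passed among numbers 4 to 6. Of the 15 adherens junction genes, 0 were higher and 0 lower, also 0 at an unadjusted p under 0.05, and the median log2 fold change was 0.00. Of the catenin genes, which tie E-cadherin to actin, Ctnna1 averaged 2124 ± 346 in VPA_OCA and 1842 ± 258 in VPA. Ctnnb1 averaged 3222 ± 486 in VPA_OCA and 3543 ± 265 in VPA. The N-cadherin gene Cdh2 of hepatocytes averaged 974 ± 205 in VPA_OCA and 1106 ± 67.4 in VPA. Its log2 fold change was 0.06 among numbers 4 to 6 and -0.47 among numbers 1 to 3 (unadjusted limma p of the difference 0.00332, adjusted p = 0.42). Of the 21 tight junction genes, 0 passed, 2 had an unadjusted p under 0.05 and 16 had a log2 fold change above 0, with a median of 0.11. The smallest p-values of this list were those of claudin genes, which encode the strands of the tight junction. Cldn7 averaged 8.28 ± 5.10 in VPA_OCA and 3.37 ± 0.976 in VPA (adjusted p = 0.29). Cldn1 averaged 704 ± 289 in VPA_OCA and 460.0 ± 115 in VPA (adjusted p = 0.51). Cldn14 averaged 187 ± 56.9 in VPA_OCA and 141 ± 39.5 in VPA (adjusted p = 0.603). Cldn1 was the 1 of the 21 that passed with the set of numbers as a term (adjusted p = 0.0175) and the 1 that passed among numbers 4 to 6 (log2 fold change 0.78, adjusted p = 0.0275). Its log2 fold change was 0.31 among numbers 1 to 3 (adjusted p = 0.442), and the difference between the sets had an unadjusted p of 0.0307 and an adjusted p of 0.555. Of all genes, 1.34% were higher with the set of numbers as a term and 0.347% among numbers 4 to 6.

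Among numbers 4 to 6, the tight junction genes summed to 16420.0 to 17130.0 normalized counts in VPA_OCA and 13570.0 to 13880.0 in VPA. Among numbers 1 to 3 they summed to 10890.0 to 12920.0 in VPA_OCA and 10840.0 to 12350.0 in VPA. These sums were thus apart between the groups among numbers 4 to 6 and overlapped among numbers 1 to 3. They are set mostly by the most abundant genes and were not tested. The median log2 fold change of the 21 genes was 0.10 in either set. Of the 12 desmosome and gap junction genes, 0 passed and 1 had an unadjusted p under 0.05, with a median log2 fold change of 0.10. The plakophilin gene Pkp3, of the desmosomal plaque, averaged 31.6 ± 8.48 in VPA_OCA and 20.9 ± 6.64 in VPA. The desmosomal linker gene Ppl averaged 447 ± 140.0 in VPA_OCA and 320.0 ± 162 in VPA. The desmosomal cadherin gene Dsc2 averaged 1059 ± 94.4 in VPA_OCA and 948 ± 128 in VPA, with a log2 fold change of 0.41 among numbers 4 to 6 and -0.07 among numbers 1 to 3 (unadjusted limma p of the difference 0.00597, adjusted p = 0.427). Dsp, the gene of the desmosomal plaque protein desmoplakin, named after its values were seen, was the 1 of the 12 that passed among numbers 4 to 6, where 0.347% of all genes were higher. It had 1302, 1406 and 1193 normalized counts in VPA_OCA, against 833, 899 and 882 in VPA (log2 fold change 0.57, limma adjusted p = 0.033). Its values of 667, 450.4 and 716 in VPA_OCA overlapped 594, 684 and 650.0 in VPA among numbers 1 to 3 (log2 fold change -0.10). The difference of effect between the sets had an unadjusted p of 0.00488 and an adjusted p of 0.427.

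Regulators of the Cdh1 gene and of duct fate held no call. Of the 15 tested regulators of E-cadherin, 0 were higher and 0 lower by limma, 2 had an unadjusted p under 0.05, and the median log2 fold change was 0.02. Grhl2, an epithelial transcription factor that activates Cdh1, averaged 9.58 ± 3.0 in VPA_OCA and 4.33 ± 2.5 in VPA (log2 fold change 1.05, adjusted p = 0.192). The repressor Snai2 averaged 100 ± 14.7 in VPA_OCA and 82.8 ± 20.1 in VPA. The hepatocyte factor Hnf4a averaged 8589 ± 640.0 in VPA_OCA and 10078 ± 931 in VPA (adjusted p = 0.431). Of the 16 Notch and YAP genes, which direct cells towards the duct fate, 0 passed, 1 had an unadjusted p under 0.05 and the median was -0.04. Wwtr1, the YAP partner TAZ, averaged 314 ± 17.7 in VPA_OCA and 271 ± 27.7 in VPA. The YAP target Cyr61 averaged 150.0 ± 69.2 in VPA_OCA and 103 ± 16.9 in VPA. The receptor gene Notch1 averaged 274 ± 70.3 in VPA_OCA and 348 ± 85.8 in VPA.

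Of 17 other keratins and their linkers, 16 were in the table and 5 were tested, with 0 passing, 0 at an unadjusted p under 0.05 by limma and a median log2 fold change of -0.02. The smallest p was that of Krt79, at 7.39 ± 4.06 in VPA_OCA and 4.92 ± 1.95 in VPA. Vim, the intermediate filament gene of mesenchymal cells, averaged 336 ± 51.4 in VPA_OCA and 379 ± 82.6 in VPA. Krt10 averaged 26.8 ± 5.52 in VPA_OCA and 25.3 ± 8.2 in VPA. The other 11 were below the filter, and Krt6a, Krt6b, Krt12 and Krt16 were at 0 in every library.

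**Figure D5:**
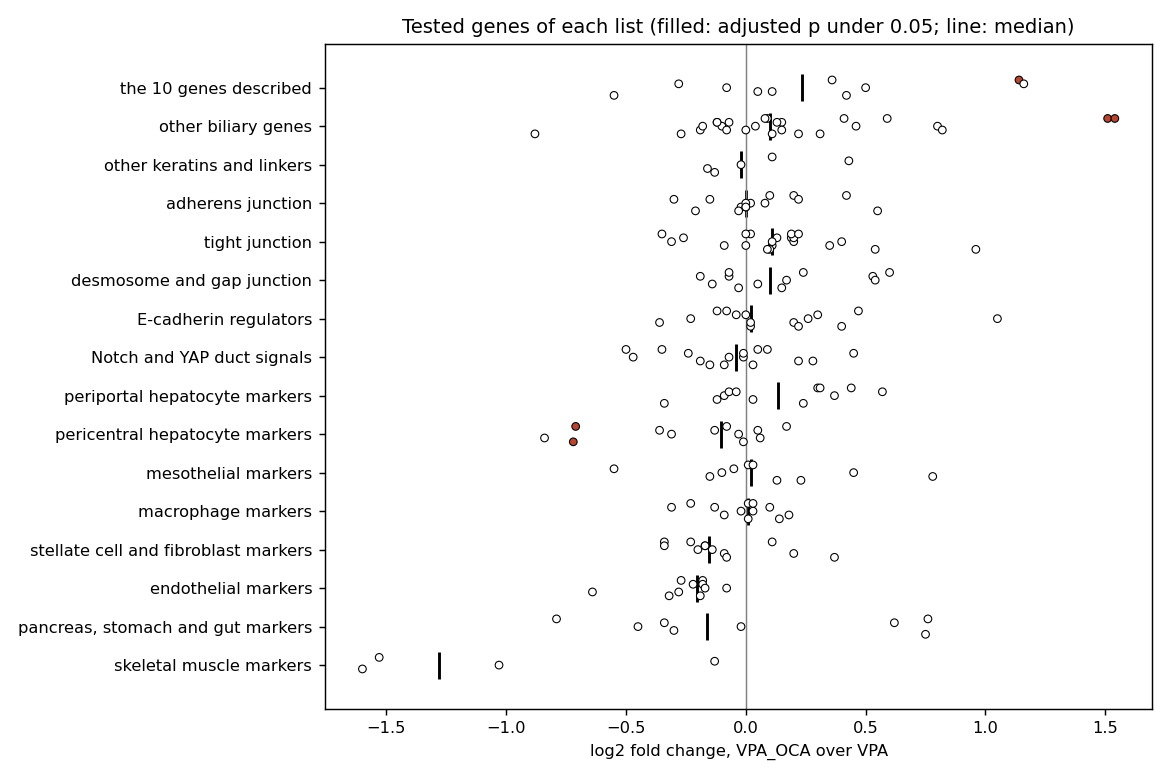
Log2 fold change of VPA_OCA over VPA (horizontal axis) of each tested gene, by gene list, with filled circles for genes with an adjusted p under 0.05, open circles for the others and a vertical line for the median of the list. Filled circles appear for Cdh1, Slc10a2 and Prom1 on the right and for the pericentral genes Slc1a2 and Rhbg on the left, and the medians of the junction lists lie between 0.00 and 0.11.

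Of the hepatocyte markers of the zone where E-cadherin is found, 0 passed without the set of numbers as a term and 3 were higher with it, and 2 markers of the opposite zone fell. The periportal list held 12 genes, of which 3 had an unadjusted p under 0.05 without that term, with a median log2 fold change of 0.14. Its median was 0.07 among numbers 4 to 6 and 0.24 among numbers 1 to 3. With that term Hal (adjusted p = 0.0148), Ctsc (0.0175) and Cyp2f2 (0.0289) passed by limma, against 1.34% of all genes. The histidine lyase gene Hal averaged 11749 ± 1460.0 in VPA_OCA and 8021 ± 1860.0 in VPA (adjusted p = 0.115). Its log2 fold change was 0.34 among numbers 4 to 6 (adjusted p = 0.28) and 0.80 among numbers 1 to 3 (adjusted p = 0.0497), with an unadjusted p of 0.0366 and an adjusted p of 0.576 for the difference. The cytochrome P450 gene Cyp2f2, named after its values were seen, averaged 15378 ± 4810.0 in VPA_OCA and 11308 ± 3290.0 in VPA (adjusted p = 0.576 without the term). The protease gene Ctsc averaged 2536 ± 187 in VPA_OCA and 1967 ± 198 in VPA (0.0731). The immunoglobulin receptor gene Pigr, which is also in the biliary list, averaged 28872 ± 3660.0 in VPA_OCA and 23175 ± 1740.0 in VPA (0.347). Of 12 pericentral markers, 0 were higher and 2 lower, against 0.442% and 0.279% of all genes, with a median of -0.11. That median was -0.06 among numbers 4 to 6 and -0.33 among numbers 1 to 3. The glutamate transporter gene Slc1a2 fell to 1885 ± 356 in VPA_OCA, against 3072 ± 335 in VPA (log2 fold change -0.72, adjusted p = 0.0161). The ammonium transporter gene Rhbg fell to 94.4 ± 16.4 in VPA_OCA, against 155 ± 24.5 in VPA (-0.71, adjusted p = 0.0333). Among numbers 4 to 6 the log2 fold change was -0.86 for Slc1a2 (limma adjusted p = 0.107) and -0.9 for Rhbg (0.0525). Among numbers 1 to 3 it was -0.58 for Slc1a2 (limma adjusted p = 0.0393) and -0.52 for Rhbg (0.337). The third by p, the ornithine aminotransferase gene Oat, had a log2 fold change of -0.84 (adjusted p = 0.0773, and 0.0157 with the replicate block). With the set of numbers as a term, 3 of the 12 were lower (Slc1a2, Rhbg and Oat), as were 0.789% of all genes. With 1 library left out at a time, Slc1a2 passed in 10 of 12 fits (not without VPA replicate 3 or 6, adjusted p = 0.0508 and 0.0519). Rhbg passed in 5 of 12 (adjusted p up to 0.0884, not without VPA_OCA replicate 3, 4 or 5 or VPA replicate 1, 4, 5 or 6). The part of these zonal genes in the Cdh1 result was not tested.

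Markers of other cell types gave no call by limma over all 12 libraries without the set of numbers as a term. Of them, 0 mesothelial, 0 macrophage, 0 stellate cell and 0 muscle markers, 1 endothelial marker and 3 pancreas, stomach and gut markers had an unadjusted p under 0.05. The 10 mesothelial markers, of the keratin-bearing covering of the liver, had a median log2 fold change of 0.02. Their summed normalized counts ranged from 126 to 306 in VPA_OCA and from 91.0 to 364 in VPA. The 12 macrophage markers had a median of 0.01 and sums of 3522 to 5821 in VPA_OCA and 3056 to 8299 in VPA. The 12 stellate cell and fibroblast markers had a median of -0.15 and sums of 3308 to 5133 in VPA_OCA and 3497 to 5475 in VPA. All 10 endothelial markers had a log2 fold change under 0, with a median of -0.21. That median was -0.54 among numbers 4 to 6 and 0.08 among numbers 1 to 3. In the other fits, 1 endothelial marker was lower with the set of numbers as a term (Lyve1, log2 fold change -0.64, adjusted p = 0.0314) and 1 was lower among numbers 4 to 6, as were 0.153% of all genes. That gene was Fcgr2b, with a log2 fold change of -0.60 (limma adjusted p = 0.0414) there and 0.05 among numbers 1 to 3 (unadjusted p of the difference 0.00177, adjusted p = 0.363). In the gut list, Fabp2, a fatty acid binding protein gene that averaged 3711 ± 1540.0 in VPA_OCA and 2144 ± 574 in VPA, was higher with the set of numbers as a term (0.75, adjusted p = 0.0398). Of all genes, 1.34% were higher and 0.789% lower with that term. The 8 tested pancreas, stomach and gut markers had a median of -0.16, and the 4 tested muscle markers one of -1.28.

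By their pattern over the 12 libraries, the gene most like Cdh1 was Steap3, an iron reductase, at a Pearson correlation of 0.96 of log2 values, among 11323 genes with a mean of at least 20 normalized counts. Next came Gpr12, an orphan receptor, at 0.95, Pcx, the pyruvate carboxylase gene, at 0.92, L3mbtl3 at 0.91 and the protease inhibitor gene Spint2 at 0.91. Steap3 averaged 590.0 in VPA_OCA and 265 in VPA among numbers 4 to 6, and 346 in VPA_OCA and 235 in VPA among numbers 1 to 3, the same order of levels as Cdh1. Nearest to Krt19 were Cd24a at 0.87, Lrit1 at 0.85, Tsg101 at 0.78, Krt7 at 0.73 and Pim2 at 0.71, each highest in VPA_OCA replicate 3. Nearest to Krt23 were Enox2 at 0.88, H3f3b and Zfp799 at 0.87, the acute phase gene Orm3 at 0.86 and Xrcc2 at 0.85. These correlations describe 12 libraries that share group and set differences.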

How the data were processed

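RNA sequencing of 12 flash-frozen mouse livers (6 VPA_OCA, 6 VPA) was analysed from 1 deposited table that holds all libraries. Trizol extraction and TruSeq library preparation are given per the labels' protocols. For the authors' processing, the submitters' processing notes name edgeR (no version) and the build GRCm38.p5. How reads were aligned, counted and annotated, and whether strand was used, is not given in the sources used here. The deposited signal is a normalized count per gene and library, and FPKM values are given beside it, per the file headers. The authors' table also holds p-values, adjusted p-values, a log2 ratio, a GC fraction and a gene length, per the file headers; the GC fraction was not tested. Some deposited cells, written with a decimal comma plus an exponent, were 1000 times too large (10536 log2 ratios, 238 p-values, 88 adjusted ones and a few values per library). They were divided by 1000, and adjusting the p-values of the 12517 genes called present again then came within 0.538% of the authors' values. Symbols that a spreadsheet had turned into dates (26) were replaced through the gene ID, and every per-sample column was used (0 left over).

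Since the values are not raw counts, log2(normalized count + 1) was compared with limma 3.58.1 in R 4.3.3 (2-sided, moderated variances with a trend on level, no term besides group), for genes with a value of at least 1 in at least 6 libraries, with Benjamini-Hochberg adjustment and a threshold of 0.05; the script was tested on simulated data. Fold changes on this scale understate those of low genes. Each library is taken as 1 mouse, and p-values measure the spread between these libraries. Deviations of same-numbered libraries from their group means correlated at 0.15 to 0.478 over 11481 genes in all 6 pairs. By the rule used (every pair over 0.1) the numbers were taken to pair the libraries. That pairing comes from the data and not from the labels. Libraries of both groups also separated by numbers 1 to 3 and 4 to 6, and this rule cannot tell a pairing from that separation. Only replicates 1 and 3, 2 of the 6 VPA_OCA libraries, correlated best with the VPA library of their own number; replicates 2, 4, 5 and 6 did so with VPA replicates 1, 6, 6 and 4. Correlations between genes used scipy 1.17.1 with all 1296 permutations within group and set of numbers, or all 720 within a set. Over the 12 libraries with means left in, 100000 random permutations were used. Figures were drawn with matplotlib 3.10.9, and promoter windows came from RefSeq (GRCm38.p6).

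The 10 genes and the 15 lists (217 entries) were chosen with earlier results of these data known. Genes were named by a rule. It took all 10 genes, and in each list those past the threshold and otherwise up to 3 by p. It also took Slc51b and Cyp8b1, and the 5 genes most like Cdh1, Krt19 and Krt23. Exceptions are stated, but in the lists of other cell types some genes that the rule picks, such as Adgre1 and Dcn, are not described. Alternatives were other filters, scalings, pseudocounts, array weights, no trend in limma, a replicate block, the set of numbers as a term or alone, libraries left out, and other thresholds.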

Additional observations from a re-analysis of the deposited data

Results flagged for a closer look

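In each group of 6 libraries, the highest or lowest value was compared with the rest by its gap to the nearest value over the group's range, and 17 values among 126 groups of the genes named here exceeded Dixon's critical value for 6 values. Chance alone flags about 1 group in 20 where genes are named without regard to their values, which does not hold for all genes here. In VPA_OCA replicate 3, 7 genes stood apart: Krt19 had 98.0 normalized counts (next highest in VPA_OCA 26.8), Cldn7 17.7 (9.34), Cd24a 138 (52.6), Mmp7 20.9 (6.24), Muc1 102 (9.34), Ctrb1 40.7 (1.08) and Reg1 25.0 (0), the last 5 of which were named after their values were seen. VPA replicate 4 had the highest muscle values, with Ckm at 127 (next highest in VPA 21.8), Tnni2 at 53.4 (12.5) and Atp2a1 at 41.3 (9.35), and the lowest Muc1, at 3.02 (7.02). The remaining values were Cftr at 6.15 in VPA replicate 3 (2.11), Reg1 at 2.08 in VPA replicate 5 (0), Cd34 at 82.8 in VPA replicate 1 (69.1), Cyr61 at 280.0 in VPA_OCA replicate 5 (160.0), Muc16 at 15.6 in VPA_OCA replicate 6 (9.74) and Tnni2 at 6.22 in VPA_OCA replicate 6 (2.24).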

How the results depend on the processing

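Of the 10 genes, 1 was higher as reported. None was with no filter on low values, with limma without trend, at a threshold of 0.01 or without VPA replicates 4 and 5 (0 in each), 2 were with the set of numbers as a term, and 0 to 1 were with 1 library left out; 0 were lower under any alternative run. The adjusted p of Cdh1 was 0.0574 with no filter, 0.106 without trend and 0.0757 without VPA replicates 4 and 5. With the replicate block, 129 genes were higher and 81 lower, against 84 and 53, with no changed call among the 10 genes, Slc10a2, Prom1, Slc1a2 or Rhbg, while Fgfr2 and Oat were called. Over all genes, 254 were higher and 150 lower with the set of numbers as a term, 141 and 82 at a threshold of 0.10, 46 and 16 at 0.01, and 63 to 97 and 28 to 49 with 1 library left out; 26 were lower without trend and 29 among numbers 4 to 6 alone. The cause was not tested. Directions reversed for Krt7 among numbers 4 to 6 (-0.30) and with libraries left out (-0.08 to 0.30), for Epcam among numbers 4 to 6 (0.11) and with libraries left out (-0.20 to 0.08), and for Spp1 among numbers 1 to 3 (-0.39), without VPA replicates 4 and 5 (-0.05) and with libraries left out (-0.04 to 0.18); none of these passed in any fit. Slc10a2 missed the threshold among numbers 1 to 3 alone (adjusted p = 0.155) and Prom1 in either set alone (0.0793 among numbers 4 to 6 and 0.108 among 1 to 3). Without trend, Slc1a2 (0.0675) and Rhbg (0.06) lost their calls. Restricting the test to genes the authors call present, chosen after seeing the data, left 8 of the 10 genes with 1 call. Depth limits Cftr, Krt7, Krt19, Epcam and Sox9, which rest on few reads per library.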
